A study of Sus scrofa with 9 samples.

Results

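Transcript levels of 10 genes of the Eph receptor and ephrin family were examined in porcine valvular interstitial cells (PVICs), the fibroblast-like cells of the aortic valve leaflet. The 10 genes are 7 receptors (EPHA2, EPHA3, EPHA4, EPHA10, EPHB2, EPHB3 and EPHB4) and 3 ephrins (EFNA1, EFNB1 and EFNB2). They are 10 of the 22 Eph and ephrin genes found by symbol among the 19535 gene rows of the count table, which holds 14 receptors and 8 ephrins. The list was chosen by symbol with the measured levels in the control, OIM and bFGF libraries in view, so the values of these genes below are a description and carry no p-value.

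Eph receptors form the largest family of receptor tyrosine kinases. Their ligands, the ephrins, stay attached to the surface of the neighbouring cell, A-type ephrins through a lipid anchor and B-type ephrins through a transmembrane segment, so a signal can run into the receptor-bearing cell and, in reverse, into the ephrin-bearing cell. The family is known for contact repulsion, boundary formation and axon guidance, and ephrin-B2 and EphB4 for marking arterial and venous endothelium. B-type ephrins and Eph receptors also take part in the signals exchanged between bone-forming and bone-resorbing cells.

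RNA from 3 groups of 3 libraries each was sequenced. All cells came from wild type pigs aged 4 to 5 months, and the leaflet endothelium had been scraped away before the interstitial cells were released with collagenase. The control group was kept in DMEM with serum, without inducer. The osteogenic induction medium (OIM) group received sodium dihydrogen phosphate at 2 mmol/L, ascorbic acid at 50 µg/mL and insulin at 1e-07 mol/L, and the bFGF group received this medium together with 50 ng/mL basic fibroblast growth factor, so that the bFGF group differs from control by both additions. The labels give 3 days of treatment, while the methods of the study give a shorter time before RNA extraction. Nothing in the sources says that the replicates came from separate animals or cultures, and the p-values given here then measure only the spread between these libraries, which may be technical.

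A stretch of 24 bases sets 2 receptors, EPHA10 and EPHB6, apart from the others. It encodes the catalytic loop of the kinase domain, and the codon in capitals stands where active kinases have an aspartate codon. The sequences were read from the RefSeq Sscrofa11.1 genome at the annotated coding exons, 5′ to 3′ on the coding strand, and the 7 listed receptors are shown with EPHB6, the other receptor on which the results turn.
EPHA2: caccgcGACctggccgcccgcaac
EPHA3: caccgaGACcttgctgctcgaaac
EPHA4: catcgaGACctggctgcacggaac
EPHA10: caccggGGCctggcggcccgccgt
EPHB2: caccgcGACctggccgcccgcaac
EPHB3: caccgcGACctggctgcccgcaac
EPHB4: caccgaGACctggccgcccgcaac
EPHB6: caccgcGCGctctctgcccacagc
EPHA2 and EPHB2 shared all 24 bases. An aspartate codon was present in 12 of the 14 receptors. The other 2 were EPHA10 (chr6:93769683-93769706, minus strand) and EPHB6 (chr18:7350557-7350580, minus strand), both known as receptors without an active kinase. The loop of EPHA2 lies at chr6:75260267-75260290 and that of EPHA4 at chr15:123368991-123369014, both on the minus strand.

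The family is spread over many chromosomes, with a few clusters. EPHA2, EPHA10, EPHB2 and EPHA8 lie on chromosome 6, and EFNA1, EFNA3 and EFNA4 lie side by side on chromosome 4 between 94666457 and 94735578. EFNB1 is on chromosome X, from 54947339 to 54961403, and EFNB2 on chromosome 11, from 74188337 to 74232768.

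Gene counts per library ran from 57075793 to 64723837 in control, from 57682710 to 67371523 in OIM and from 46773376 to 48270827 in bFGF. Levels are given as CPM (counts divided by the library total in units of 1e+06 counts) scaled by TMM, a method that corrects library totals for differences in composition. A gene was called when edgeR's quasi-likelihood test gave a Benjamini-Hochberg adjusted p of at most 0.05 over the 13662 genes tested and the log2 fold change was at least 0.5 in size. With library totals alone, the log2 fold change of the median gene moved up by 0.22 in both comparisons of bFGF and by 0.0031 in OIM against control. OIM replicate 2 stood apart from the other OIM libraries, and values without it are given where they matter. In these bulk libraries, fewer cells of a type and less RNA per cell cannot be told apart.

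The labelled cell type was checked against its markers. All 10 of the VIC and fibroblast markers were present, with summed levels of 65400 to 70800 CPM in control, 62000 to 64900 CPM in OIM and 39100 to 39500 CPM in bFGF. Of these 10, 2 were called higher in bFGF than in OIM (VIM and POSTN) and 4 lower (COL1A1, COL1A2, COL3A1 and DCN), beside 17.7% and 18.4% of all tested genes. Cardiomyocyte markers summed to less than 1 CPM and epithelial markers to at most 0.22 CPM in any library. The 5 leukocyte markers summed to 12.8 to 16.0 CPM in control, 13.9 to 15.3 CPM in OIM and 8.15 to 8.71 CPM in bFGF. Most of that sum was CD14, which was called lower in bFGF than in OIM (-0.81 on the log2 scale), and CD3E was at the floor in every library. The 5 smooth muscle markers summed to 9790 to 10300 CPM in control, 10100 to 13300 CPM in OIM and 1620 to 1800 CPM in bFGF, and all 5 were called lower in bFGF than in OIM (18.4% of all tested genes were). MYH11, the smooth muscle myosin heavy chain, was also called higher in OIM than in control, at 1.13 on the log2 scale (edgeR, adjusted p = 1.02e-05). The part of these cell types in the results below was not tested.

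With bFGF, EPHA2 was higher and EPHA4 was lower, and EPHA2 became the most abundant receptor per length. EPHA2, a receptor for A-type ephrins that is widely expressed in epithelial and mesenchymal cells, stood at 56.7, 58.9 and 56.9 CPM in the control libraries, at 64.7, 75.5 and 58.0 CPM in the OIM libraries and at 186, 194 and 199 CPM in the bFGF libraries. The bFGF libraries lay above all others, while control and OIM overlapped. The log2 fold change of EPHA2 was 1.55 ± 0.064 (SE) in bFGF against OIM and 1.75 ± 0.065 in bFGF against control. It was 0.20 ± 0.065 in OIM against control and was not called there, and it was 0.094 without OIM replicate 2, the highest OIM library.

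EPHA4, a receptor that binds ephrins of both types, showed the opposite pattern. Its levels were 148, 155 and 149 CPM in control, 139, 117 and 151 CPM in OIM and 46.7, 42.6 and 42.1 CPM in bFGF. Every bFGF library lay below every other library. Its log2 fold change was -1.63 ± 0.068 in bFGF against OIM and -1.78 ± 0.068 in bFGF against control. Against control, OIM gave -0.15 ± 0.064, not called, and -0.052 without OIM replicate 2, which was the lowest OIM library.

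EPHB3 and EPHB4, both receptors for B-type ephrins, were lower with bFGF by smaller amounts. EPHB3 stood at 47.6, 54.6 and 49.2 CPM in control, 60.1, 50.2 and 57.2 CPM in OIM and 32.7, 31.2 and 32.3 CPM in bFGF, with log2 fold changes of -0.80 ± 0.065 against OIM and -0.65 ± 0.065 against control. EPHB4, the main receptor of ephrin-B2, stood at 76.1, 82.8 and 73.9 CPM in control, 74.7, 72.6 and 75.6 CPM in OIM and 52.7, 54.0 and 52.8 CPM in bFGF. The bFGF libraries lay below the others for both genes, and control and OIM overlapped for both. For EPHB4 the log2 fold change was -0.48 ± 0.047 in bFGF against OIM, just short of the fold limit, and -0.55 ± 0.047 in bFGF against control, which was called. Without control replicate 2 the EPHB4 value was -0.50 and no longer called. With library totals alone neither gene was called in bFGF against control, at -0.43 for EPHB3 and -0.32 for EPHB4, while EPHB3 was still called against OIM at -0.58.

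EPHA10, one of the receptors without an active kinase, was read in control and OIM and not in bFGF. It had 65, 72 and 40 counts in control, 51, 32 and 29 counts in OIM and 0 counts in each bFGF library. Read against a floor of 3 counts per library (0.0571 CPM), its level in bFGF was at least 11.3-fold lower than in OIM and at least 17.8-fold lower than in control. Floors of this kind cover counting error only. EPHA10 passed the filter on low counts only through the control and OIM libraries. The last 114 exonic bases of EPHA10 overlap CDCA8 on the opposite strand. CDCA8 had 641 to 865 counts in control, 761 to 1185 in OIM and 2517 to 2862 in bFGF, where EPHA10 had none. Whether the counting used strand is not given in the sources used here, so reads from the overlap could not be assigned.

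EPHA3 and EPHB2 were low and were not called in any comparison. EPHA3, which binds A-type ephrins, had 47, 50 and 58 counts in control, 44, 96 and 56 in OIM and 68, 54 and 61 in bFGF, or between 0.812 and 1.47 CPM throughout. EPHB2, which binds B-type ephrins, had 106, 145 and 130 counts in control, 80, 94 and 116 in OIM and 81, 73 and 95 in bFGF, or between 1.40 and 2.39 CPM. For EPHA3 the log2 fold change in bFGF against OIM was 0.085 ± 0.31, and for EPHB2 it was -0.061 ± 0.23, with a change of sign to 0.16 for EPHB2 under library totals alone. In bFGF against control EPHB2 gave -0.46 ± 0.22 and EPHA3 0.39 ± 0.31, both short of the limit on adjusted p and of the fold limit. The groups did not overlap in CPM for either, as held for 73.7% of all tested genes.

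EFNB2, which encodes ephrin-B2, had the largest increase in bFGF among the 10 genes and was the only one of them called in OIM against control. Its counts were 75, 88 and 73 in control, 161, 172 and 151 in OIM and 697, 604 and 782 in bFGF. As levels these were 1.38, 1.45 and 1.22 CPM, then 2.97, 2.64 and 2.64 CPM, then 13.0, 11.6 and 15.0 CPM. The 3 groups did not overlap and formed 3 steps. On the log2 scale the difference was 1.02 ± 0.15 in OIM against control, 2.26 ± 0.13 in bFGF against OIM and 3.29 ± 0.14 in bFGF against control, a 9.78-fold difference. In the fits that left out one library, the log2 fold change in OIM against control ran from 0.96 to 1.08 and stayed called in 9 of 9.

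Because EFNB2 and EPHB4 also mark endothelium, the endothelial markers are given beside them. The summed level of the 7 endothelial markers in the table was 72.5 to 74.4 CPM in control, 86.7 to 87.9 CPM in OIM and 166 to 176 CPM in bFGF. Of these 7, 5 were called higher in bFGF than in OIM (PECAM1, CDH5, TEK, CLDN5 and ERG) and 0 lower, beside 17.7% and 18.4% of all tested genes, and most of the sum was ERG, at 134 to 143 CPM in bFGF. CLDN5, with 8, 1 and 1 counts in OIM and 20, 17 and 16 in bFGF, passed the filter on low counts only through the bFGF libraries, and it and CDH5 were called in 7 of 9 fits that left out one library. In bFGF against control 3 of the 7 were called higher (PECAM1, TEK and ERG), beside 18.9% of all tested genes. PECAM1 stood at 12.3 to 13.9 CPM in control, 10.6 to 12.7 CPM in OIM and 19.6 to 21.7 CPM in bFGF, and VWF at 0.105 to 0.586 CPM over all libraries. None of the 7 was at the floor in every library. In OIM against control, where EFNB2 was also called, 0 of the 7 endothelial markers were called higher, but ERG was short only of the fold limit, at 0.37 ± 0.041 (edgeR, adjusted p = 3.07e-06), with no overlap between the groups. The part of endothelial RNA in the EFNB2 result was not tested.

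EFNB1, the other B-type ephrin of the list, was higher in bFGF by a smaller amount. It stood at 50.0, 52.8 and 50.2 CPM in control, 46.4, 49.1 and 45.4 CPM in OIM and 73.1, 72.1 and 72.4 CPM in bFGF. The bFGF libraries were the highest and the OIM libraries the lowest, with no overlap between groups. For EFNB1 the log2 fold change was 0.63 ± 0.046 in bFGF against OIM and 0.51 ± 0.046 in bFGF against control, and -0.12 ± 0.047, not called, in OIM against control. The call against control lay close to the fold limit and was lost without control replicate 1 or without control replicate 3, with 0.49 as the lowest value.

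EFNA1, an A-type ephrin and a ligand of EphA2, was lower in bFGF. Its levels were 9.49, 9.22 and 9.06 CPM in control, 9.02, 7.14 and 8.89 CPM in OIM and 2.74, 2.86 and 3.00 CPM in bFGF. Each bFGF library lay below every other library, and the lowest OIM library was again replicate 2. On the log2 scale EFNA1 differed by -1.54 ± 0.12 in bFGF against OIM, -1.69 ± 0.12 in bFGF against control and -0.15 ± 0.11, not called, in OIM against control, where it was -0.046 without OIM replicate 2.

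**Figure D1:**
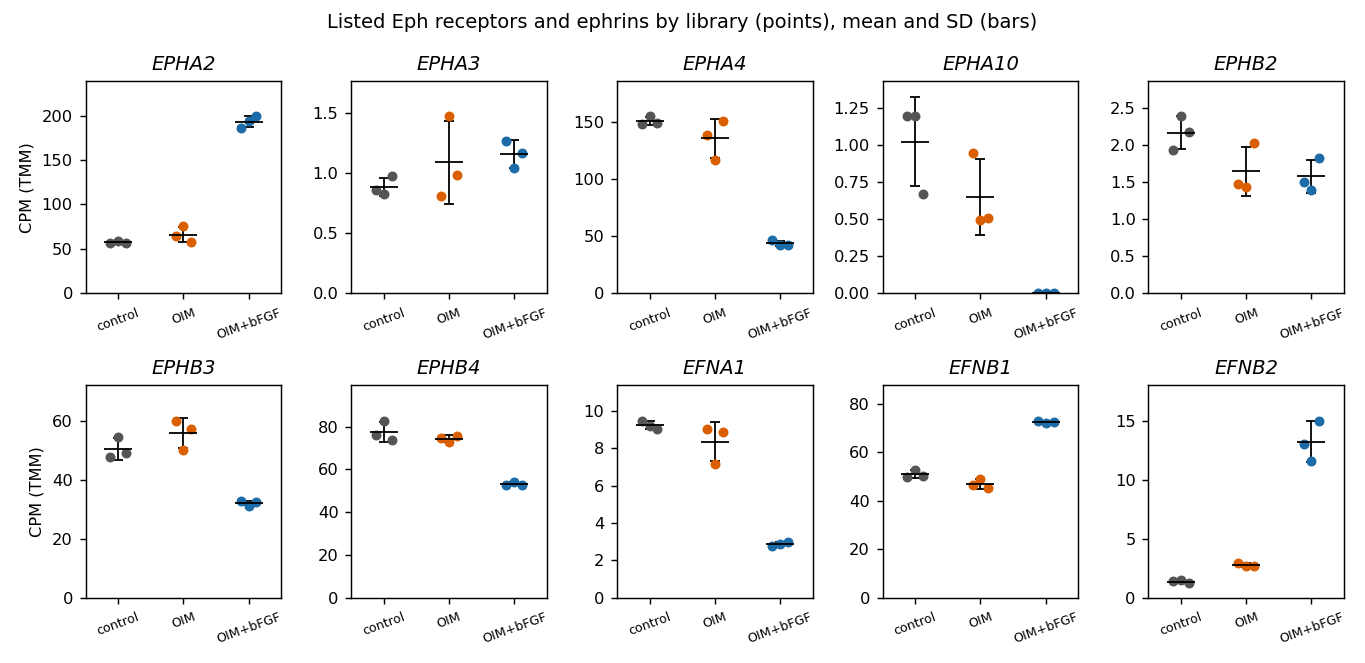
TMM-scaled CPM (vertical axes, from 0) of the 10 listed genes in the control, OIM and bFGF (OIM+bFGF) groups; points are libraries and bars are the mean and SD of 3. EPHA2, EFNB1 and EFNB2 were highest in all 3 bFGF libraries, EPHA4, EPHB3, EPHB4 and EFNA1 were lowest there, and EPHA10 had 0 counts there.

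In counts over the list, 1 of the 10 genes was called in OIM against control (EFNB2, higher), where 2.35% of all tested genes were called (higher 1.49%, lower 0.864%). In bFGF against OIM 7 were called, 3 higher and 4 lower, where 36.2% of all tested genes were called (higher 17.7%, lower 18.4%). In bFGF against control 8 were called, 3 higher and 5 lower, where 39% of all tested genes were called (higher 18.9%, lower 20%). The libraries of the 2 groups did not overlap for 3, 8 and 10 of the 10 genes in these comparisons, beside 28.8%, 72.1% and 73.7% of all tested genes. The median log2 fold change of the 10 genes was -0.091 in OIM against control, -0.27 in bFGF against OIM and -0.50 in bFGF against control, beside -0.0019, -0.0029 and -0.016 over all genes tested. These medians are the same with EPHA10 at its bound. Nothing is read from these counts, because the list was chosen with the levels in view. Among the genes called lower in both comparisons of bFGF is EPHA10, which passed the filter on low counts only through the control and OIM libraries. Both comparisons of bFGF use the same bFGF libraries, and both comparisons against control the same control libraries.

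The remaining 12 family genes were not on the list, and 9 of them passed the filter on low counts. EPHB6, the other receptor without an active kinase, rose in OIM and fell with bFGF. It stood at 20.5, 23.4 and 19.1 CPM in control, 41.7, 32.0 and 39.0 CPM in OIM and 1.32, 1.08 and 0.885 CPM in bFGF. The 3 groups did not overlap, and the order of bFGF, control and OIM from low to high differed from that of EFNB2. The log2 fold change of EPHB6 was 0.84 ± 0.10 in OIM against control (edgeR, adjusted p = 6.19e-06), -5.09 ± 0.14 in bFGF against OIM (edgeR, adjusted p = 6.15e-17) and -4.26 ± 0.14 in bFGF against control (edgeR, adjusted p = 8.84e-16). EPHB6 kept all 3 calls in 9 of 9 fits that left out one library. EPHB6 shares 740 exonic bases with TRPV6 on the opposite strand, and TRPV6 had 0 counts in every library.

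EFNA5, an A-type ephrin, fell with bFGF by an amount close to that of EPHA4. Its levels were 37.0, 34.6 and 34.2 CPM in control, 39.2, 29.9 and 38.1 CPM in OIM and 10.4, 9.44 and 9.10 CPM in bFGF. Control and OIM overlapped, and bFGF lay below both. EFNA5 changed by -1.89 ± 0.092 on the log2 scale in bFGF against OIM (edgeR, adjusted p = 3.56e-13) and 0.019 ± 0.083 in OIM against control (edgeR, adjusted p = 0.922).

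EFNA3, the chromosomal neighbour of EFNA1, was lower as well, on few counts. It had 56, 43 and 49 counts in control, 38, 35 and 35 in OIM and 2, 17 and 0 in bFGF. For EFNA3 the log2 fold change in bFGF against OIM was -2.33 ± 0.67, and it was -4.87 without bFGF replicate 2, the library with 17 counts, with -1.76 as the value nearest to 0 when one library was left out. EFNA3 passed the filter on low counts only through the control and OIM libraries, so its call is given as a description. EFNA4, the next gene on that stretch of chromosome 4, was not called in any comparison, and its log2 fold change in bFGF against OIM was 0.25 ± 0.37, from 0.018 to 0.37 with one library left out.

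EPHA1, a receptor for A-type ephrins, rose in OIM. It had 52, 63 and 106 counts in control, 154, 144 and 144 in OIM and 92, 167 and 108 in bFGF. All OIM libraries lay above all control libraries, and the bFGF libraries overlapped both. In OIM against control the log2 fold change of EPHA1 was 1.0 ± 0.27 (edgeR, adjusted p = 0.0162), and it was called in 6 of 9 fits that left out one library. The call was lost without control replicate 1 (0.84), control replicate 2 (0.88) or OIM replicate 1 (0.91). Against control, bFGF gave 0.89 ± 0.27 (edgeR, adjusted p = 0.00674), lost without bFGF replicate 2 (0.59), and against OIM -0.11 ± 0.26 (edgeR, adjusted p = 0.721), a sign that turned to 0.11 with library totals alone.

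The other tested family genes, EPHA5, EPHA7, EFNA2, EFNA4 and EFNB3, were at most 2 CPM in mean in every group and were not called. EPHB1 did not pass the filter, with 0, 1 and 8 counts in control, 0, 3 and 9 in OIM and 8, 16 and 20 in bFGF. EPHA6 and EPHA8 had 0 counts in every library. Of the 9 tested genes outside the list, 2 were called higher and 0 lower in OIM against control, where 2.35% of all tested genes were called. In edgeR and in DESeq2 none of the 9 was called lower there, and none had an unadjusted p under 0.05 in that direction. In bFGF against OIM 3 were called lower, EFNA3 among them (18.4% of all tested genes were), and 0 higher by either tool, with 0 at an unadjusted p under 0.05. In bFGF against control 3 were called lower and 1 higher (20% and 18.9% of all tested genes).

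**Figure D2:**
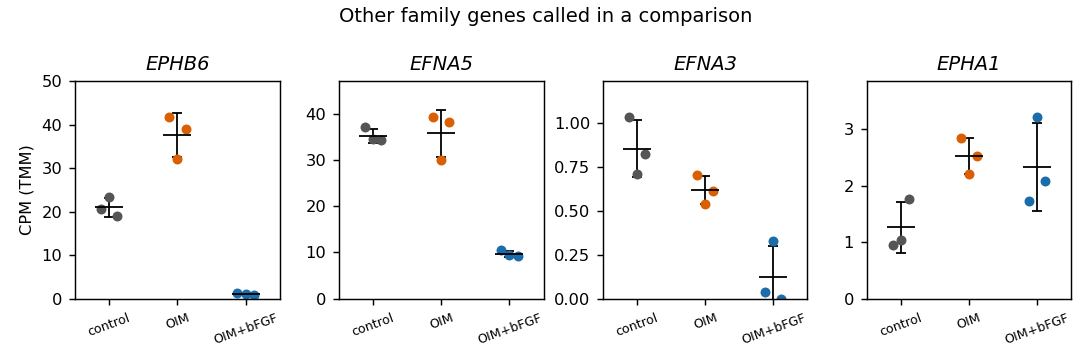
TMM-scaled CPM (vertical axes, from 0) of the 4 family genes outside the list that were called in a comparison; points are libraries, bars the mean and SD of 3. EPHB6 stood at 32.0 to 41.7 CPM in OIM and at 0.885 to 1.32 CPM in bFGF, and EFNA5 at 9.10 to 10.4 CPM in bFGF.

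**Figure D3:**
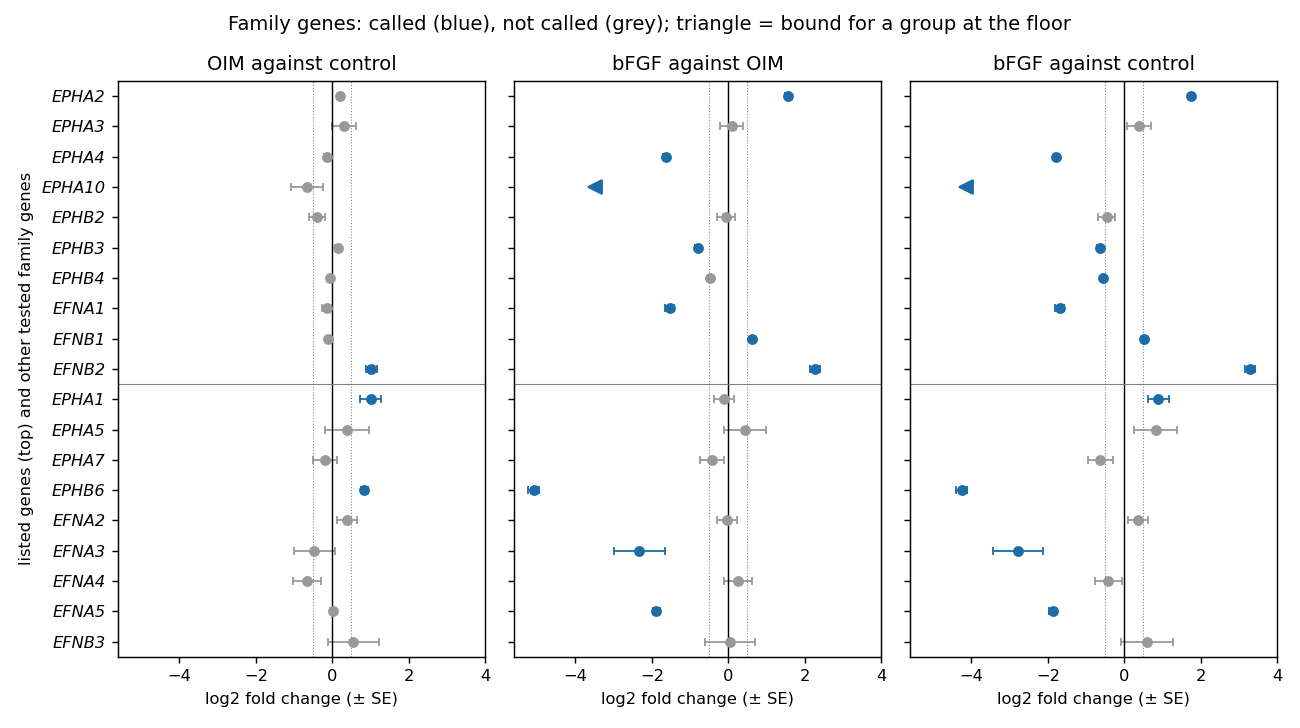
Log2 fold changes with SE (horizontal axes) of the 10 listed genes (upper rows) and the 9 other tested family genes (lower rows) in the 3 comparisons; blue points were called, grey points were not, dotted lines mark the fold limit of 0.5, and the triangles of EPHA10 stand at its bounds of 11.3-fold and 17.8-fold lower. EFNB2 was called higher in all 3 comparisons, and EPHB6 was called higher in OIM and lower with bFGF.

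To compare levels between genes, CPM were divided by the length of all annotated exons in kilobases. Where coding bases are named, the same whole-gene CPM were divided by the coding length instead. No reads were counted over coding bases alone, so genes with long untranslated exons are raised most by that division. Over all exons in control EPHA4 led the family at 23.6 ± 0.591 CPM per kb (SD, n = 3), followed by EPHB4 at 17.5 ± 1.04, EPHA2 at 13.6 ± 0.287, EFNB1 at 11.4, EPHB3 at 8.75 ± 0.635 and EFNA1 at 5.91. The ranges of these neighbours did not overlap. With the coding length as divisor the order changed. EFNA5, with 687 coding bases beside 11471 exon bases, then stood first in control at 51.3 CPM per kb and in OIM at 52.0. It overlapped EPHA4 at 50.9 and 45.9, with EFNB1 next at 49.0 and 45.1. That place of EFNA5 depends on its short coding length. Over all exons in OIM EPHA4 again led at 21.3 ± 2.68 CPM per kb, and EPHB4 at 16.8 ± 0.353 could not be separated from EPHA2 at 15.6 ± 2.09, nor EFNB1 at 10.5 from EPHB3 at 9.68 ± 0.88. In bFGF EPHA2 led at 45.7 ± 1.51 CPM per kb, then EFNB1 at 16.2, and EFNB2 at 13.2 overlapped EPHB4 at 12 ± 0.16, while EPHA4 followed at 6.85 ± 0.39 and EPHB3 at 5.56 ± 0.135. With the coding length the lead in bFGF turned round, with EFNB1 at 69.7 ± 0.496 CPM per kb above EPHA2 at 66.0 ± 2.18 and no overlap of their ranges. EPHB4 at 17.9 then stood apart from EFNB2 at 13.2, while EPHA4 at 14.8 and EFNA5 at 14.0 overlapped EFNB2. Below these, EPHB2, EPHA7, EPHA10 and EPHA3 stood at 0.155 to 0.201 CPM per kb of exons in mean in control. Neighbours in this order overlapped, while EPHB2 and EPHA3 did not, and over coding bases EPHB2 and EPHA7 did not either.

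Within each library, the share of the summed per-length level of the 14 receptors changed in make-up. EPHA2 held 20.8% ± 0.383 of it in control, 23.6% ± 3.86 in OIM and 64.0% ± 1.05 in bFGF (SD, n = 3). EPHA4 held 36.0% ± 0.518, 31.9% ± 3.19 and 9.60% ± 0.71 in the same order, and EPHB4 held 26.7% ± 0.604, 25.2% ± 0.329 and 16.8% ± 0.308. The sum itself was 65.5 ± 2.6, 66.5 ± 2.03 and 71.4 ± 1.2 CPM per kb, so the make-up differed more than the total. With the same whole-gene CPM divided by the coding length, the EPHA2 share was 16.0%, 17.9% and 58.9%. The sum was then 123 ± 5.16, 127 ± 6.39 and 112 ± 1.41 CPM per kb, so the direction of the total in bFGF depended on the length used.

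Among the 8 ephrins, EFNB2 held 5.72% ± 0.447 of the summed per-length level in control, 11.8% ± 0.413 in OIM and 39.2% ± 3.26 in bFGF. EFNB1 held 48.3% ± 1.16, 45.1% ± 3.43 and 48.3% ± 2.26, EFNA1 25.1% ± 0.522, 22.9% ± 2.18 and 5.47% ± 0.271, and EFNA5 13.1% ± 0.539, 13.4% ± 1.48 and 2.51% ± 0.224. These values depend on the annotation, since the single annotated transcript of EFNB2 has 1002 bases, all of them coding, while the exons of EFNA5 cover 11471 bases. With the same whole-gene CPM divided by the coding length, the EFNB2 share was 1.11%, 2.32% and 12.5%. The EFNB1 share was then 40.2%, 38.3% and 65.8%, and the EFNA5 share 42.1%, 43.8% and 13.3%. In both versions the B-type ephrins EFNB1 and EFNB2 together held more of the ephrin level in bFGF than in the other groups, and EFNA1 and EFNA5 less.

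**Figure D4:**
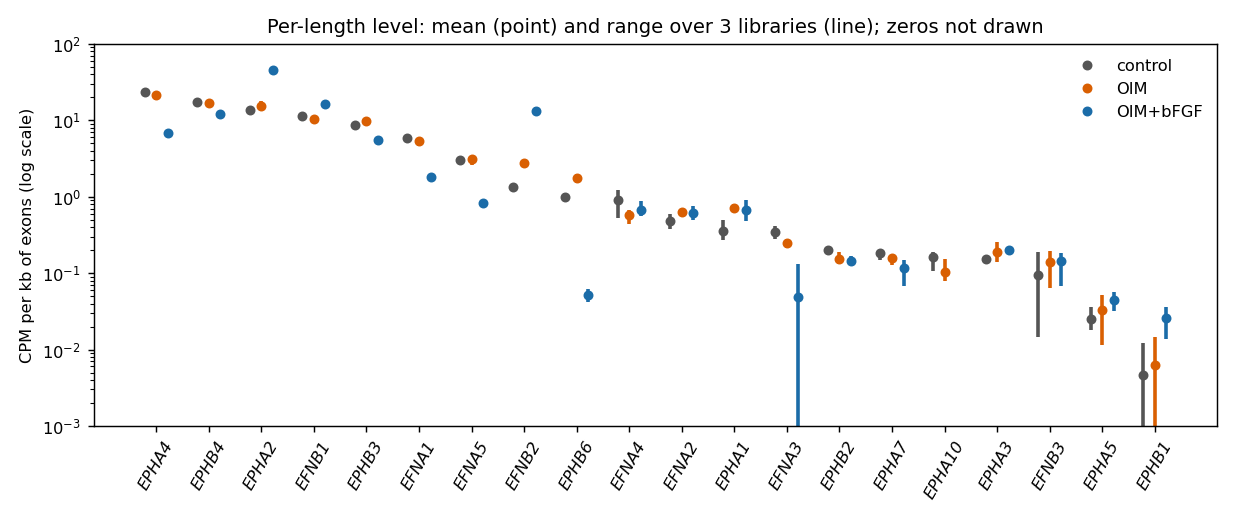
Level per kilobase of annotated exons (CPM per kb, log axis) of the 20 family genes with any count, in the order of the control group; points are means and lines the range over 3 libraries, and groups or libraries at 0 are not drawn on the log axis. EPHA2 stood above EPHA4 in bFGF (45.7 against 6.85 CPM per kb), and EFNB2 reached 13.2 CPM per kb.

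Genes of Eph and ephrin signalling were examined in a list of 52 genes, of which 51 were tested. In OIM against control 2 were called higher and 0 lower, beside 2.35% of all tested genes called, and 10 had an unadjusted p under 0.05 in the higher direction and 11 in the lower direction in edgeR, with 0 called lower in DESeq2. The 2 calls were lost without control replicate 1, OIM replicate 1 or OIM replicate 3, each of which left 0, and 1 was called with the replicate number as a block, in the fit on the 2 groups compared, and without control replicate 2, control replicate 3 or any one bFGF library. In bFGF against OIM 3 were called higher and 11 lower, beside 36.2% of all tested genes called, and the median log2 fold change of the list was -0.13, beside -0.0029 over all genes. In bFGF against control the counts were again 3 and 11, beside 39% of all tested genes called (higher 18.9%, lower 20%), with a median of -0.16 beside -0.016. With library totals alone the counts in bFGF against OIM were 8 higher and 7 lower, and, of the genes in the plot of signalling genes, ANKS1A (-0.36), PTPN13 (-0.47) and GRIP1 (-0.42) were no longer called. Of the 3 genes called higher in bFGF against OIM, 1 belongs to the 4 groups described next, so these groups do not stand for the whole list.

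Among the 15 adaptors and kinases that act downstream of Eph receptors, 1 rose and 2 fell in bFGF against OIM, where 17.7% of all tested genes were called higher and 18.4% lower. PIK3R1, a regulatory subunit of phosphoinositide 3-kinase, fell from 418 to 434 CPM in OIM to 131 to 136 CPM in bFGF (log2 fold change -1.67 ± 0.036, edgeR adjusted p = 2.37e-18). ANKS1A, an adaptor that binds Eph receptors, fell by 0.58 on the log2 scale (edgeR adjusted p = 7.36e-08), and YES1, a kinase of the Src family, rose by 0.74 ± 0.043 (edgeR adjusted p = 4.71e-12). None of the 15 was called in OIM against control by edgeR or DESeq2, and 4 had an unadjusted p under 0.05 in edgeR, GRB10 higher and ABL1, NCK1 and SH2D3C lower.

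Of the 7 negative regulators of Eph signalling, 6 were tested, and 2 fell in bFGF against OIM, beside 18.4% of all tested genes. CBLB, a ubiquitin ligase, fell by 1.21 on the log2 scale (edgeR adjusted p = 3.06e-16) and PTPRF, a receptor tyrosine phosphatase, by 1.01 (edgeR adjusted p = 4.36e-14). Among the 8 genes of reverse signalling through B-type ephrins, 4 fell in bFGF against OIM (18.4% of all tested genes did) and 0 were called higher by edgeR or DESeq2, with DVL2 at an unadjusted p under 0.05. RGS3, a regulator of G-protein signalling that binds the tail of B-type ephrins, stood at 112, 98.3 and 102 CPM in control, 147, 128 and 148 CPM in OIM and 34.1, 34.0 and 32.5 CPM in bFGF. RGS3 changed by -2.07 ± 0.059 on the log2 scale in bFGF against OIM (edgeR adjusted p = 1.18e-16). The transcription factor STAT3 fell by 0.72 (edgeR adjusted p = 1.06e-12). PTPN13, a phosphatase that binds the tail of B-type ephrins, fell by 0.69 (edgeR adjusted p = 2.21e-13). The other 2 genes given here, GRIP1 and PARD6A, were chosen after their values were seen. GRIP1, a scaffold with PDZ domains, was called at -0.64. PARD6A, a polarity protein, was called in bFGF against control only, at -1.07 ± 0.37 (edgeR adjusted p = 0.0161). That call was lost without control replicate 1 (-0.98), control replicate 2 (-0.97) or bFGF replicate 2 (-0.91) and with library totals alone (-0.84), and the difference between the comparisons was not tested.

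Among the 7 proteases linked to the processing of ephrins and Eph receptors, ADAM19 was the only gene called, beside 2.35%, 36.2% and 39% of all tested genes in OIM against control, bFGF against OIM and bFGF against control. It stood at 175, 187 and 182 CPM in control, 277, 213 and 284 CPM in OIM and 121, 119 and 122 CPM in bFGF. The 3 groups did not overlap. ADAM19 rose by 0.51 ± 0.070 in OIM against control (edgeR adjusted p = 3.87e-05), and fell by 1.1 in bFGF against OIM (edgeR adjusted p = 3.13e-11). The call in OIM against control lay close to the fold limit and was lost without control replicate 1 (0.48), OIM replicate 1 (0.46) or OIM replicate 3 (0.43). In bFGF against control the log2 fold change of ADAM19 was -0.59, and that call was lost with library totals alone (-0.36).

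**Figure D5:**
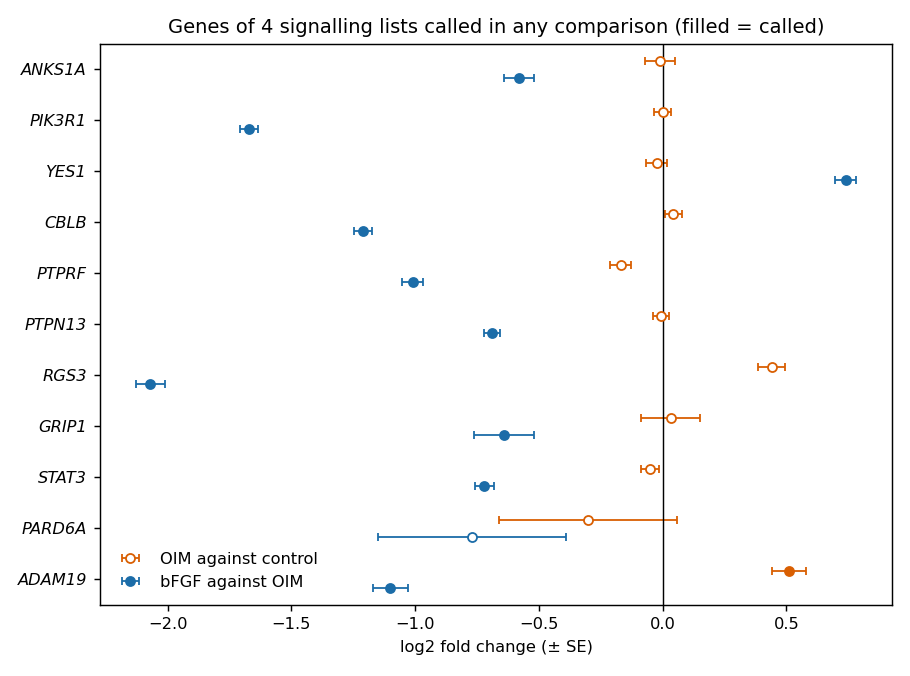
Log2 fold changes with SE (horizontal axis) of the 11 genes of 4 signalling lists (adaptors and kinases, negative regulators, reverse signalling, proteases) called in any comparison; orange points are OIM against control and blue points bFGF against OIM, and filled points were called. YES1 rose with bFGF (0.74), RGS3 had the largest fall of these genes (-2.07), and ADAM19 was the gene of these lists called in OIM against control, while the call of PARD6A came from bFGF against control, which is not drawn.

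Genes whose pattern over the 9 libraries was most like that of EFNB2 or EPHA4, the listed genes with the largest increase and the largest decrease in bFGF among those over 3 counts in every library, were found by Pearson's r of log2 CPM. These values describe 9 libraries in 3 groups and share the step between groups. For EFNB2 the most alike were TKT (r = 0.9977), POMGNT1 (0.9965) and ANO6 (0.996), and the most opposite ELF1 (-0.9974), NT5C2 (-0.9968) and PARD3 (-0.9965). For EPHA4 the most alike were C1H15orf52 (0.9987), FNDC3B (0.9985) and PLEKHO2 (0.9983), and the most opposite IPO4 (-0.9991), NCL (-0.9989) and RNASEH2B (-0.9989). Such values were common, since 1332 genes had an r over 0.95 with EFNB2 and 2005 with EPHA4. Pearson's r does not measure the size of a change. TKT had means of 136, 159 and 209 CPM in control, OIM and bFGF, beside 1.35, 2.75 and 13.2 CPM for EFNB2. FNDC3B had 546, 522 and 380 CPM and C1H15orf52 33.5, 30.2 and 10.2 CPM, beside 151, 136 and 43.8 CPM for EPHA4.

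The 300 bases around each annotated gene start, 250 before and 50 after, were searched on both strands for 5 short motifs. EPHA2 held the cyclic AMP response element TGACGTCA, which 2.26% of 19545 such windows held. It is shown in capitals within chr6:75279349-75279374 on the minus strand, with its first base 1 base before the annotated start.
EPHA2: tggcttcttTGACGTCAgcgcggggc
The AP-1 motif TGANTCA was found in 1 of the 10 listed genes, EFNB1, beside 6.06% of all windows, and the GC-box GGGCGGG in 5 of 10, beside 39.0%. The E-box CACGTG was found in EFNB1 and the ETS motif CCGGAAG in EFNB2, beside 7.92% and 11.0% of windows. The annotated start of EFNB2 is its start codon, so the window may miss the promoter. These matches describe the letters in the windows and do not show that a factor binds there.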

How the data were processed

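The libraries were total RNA, depleted of ribosomal RNA and stranded per the labels, whereas the methods of the study describe poly-A libraries and another sequencer model. The submitters' processing notes name Trimmomatic, HISAT2, StringTie and Sscrofa11.1, and the methods of the study name Cutadapt, STAR and susScr11. The counting program and its use of strand are not given in the sources used here. The deposited values were not normalized by the authors: whole-number counts for 19535 genes and 6179 circRNAs, and, for 9888 non-coding transcripts, values with 44.6% not whole. The authors deposited these non-coding values as estimated counts, and they entered no test. Another 19 columns had no name and no value, and 25 symbols had been turned into dates.

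Groups and replicate numbers came from the labels. Gene counts were used as deposited, filtered with filterByExpr, scaled by TMM and fitted with edgeR 4.0.16 (R 4.3.3) quasi-likelihood models over the 3 groups in one fit, with 6 residual degrees of freedom and a common biological coefficient of variation of 0.0602. The design kept the thresholds of the study: a Benjamini-Hochberg adjusted p of at most 0.05 over 13662 genes and a log2 fold change of at least 0.5. SEs were obtained from the F statistic, as the size of the log2 fold change over the root of F. Replicates differed by more than sampling noise (mean chi-square per gene 4.69 to 19.1). On simulated counts for OIM against control (13564 genes tested), 100 of 100 genes changed by 1 on the log2 scale and 100 of 100 changed by 2 were recovered, with 1 false call. The simulation changed no genes of low counts, gave every gene the same spread and held no outlying library. Recovery in genes of low counts, or with a library such as OIM replicate 2, was therefore not tested. Depth was 46773376 to 67371523 counts per library; a level at 0 was read as at most 3 counts per library.

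Exons, coding sequences and the genome were taken from RefSeq Sscrofa11.1, and the catalytic loop was placed in each receptor by its similarity to that of EPHB2. All 10 listed genes are named, with every other tested family gene and, in each signalling list, at most the 3 called genes of largest change in bFGF against OIM and in OIM against control; GRIP1, PARD6A and the uncalled GRB10, ABL1, NCK1, SH2D3C and DVL2 are named beyond this rule, after their values were seen. The listed genes, the signalling and marker lists and the tests were chosen with earlier results of these data known. The alternatives tried were no filter on low counts, library totals without TMM, size factors by the median of ratios, DESeq2 1.42.0 in place of edgeR, fits on only the 2 groups compared, the replicate number as a block, other limits on the fold change, and each of the 9 libraries left out. The results of 1 group of the signalling list are not reported here; its genes stay in the counts over the whole list.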

Additional observations from a re-analysis of the deposited data

Results flagged for a closer look

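One circular RNA within EPHA4 was read in OIM libraries and not in the control libraries, outside the gene counts used above. circRNA_2628 (chr15:123493649-123498514, minus strand, both ends at exon boundaries of EPHA4) had 5, 0 and 3 counts in the OIM libraries, 8 in all, and 0 counts in every control and bFGF library. No test was run on it, and the zeros allow up to 3 counts per library, by counting error only.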

How the results depend on the processing

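The calls on the 10 listed genes were the same with DESeq2, median-of-ratios size factors, no filter on low counts and fits on the 2 groups compared. The block on replicate number changed no call on them either. Same-numbered libraries did not deviate together over all genes (r from -0.032 to 0.0035, n = 9, beside -0.026 to 0.0534 for other pairs, n = 18). A shared source with a small effect, or with an effect in few genes, would not show in these values, so pairing is not excluded. With the block, or with a fit on the 2 groups, 1 signalling gene in place of 2 was called higher in OIM against control. Levels under about 2 CPM limit what can be seen, and the cause of the changes below was not tested except where the alternative itself sets it.

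With library totals alone, 3 of the listed genes in place of 5 were called lower in bFGF against control (EPHB3 and EPHB4 were lost). The signalling list then had 8 higher and 7 lower in bFGF against OIM and 8 higher and 6 lower in bFGF against control, and all genes had 3733 and 3931 higher. Of small values that were not called, EPHB2 turned to 0.16, EPHA1 to 0.11 and EFNA2 to 0.18 in bFGF against OIM.

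Without a fold limit, 2 listed genes were called higher in OIM against control, as were 6 signalling genes higher and 6 lower, 16 and 26 in bFGF against OIM, and 14 and 27 in bFGF against control. All genes then gave 1051 higher and 802 lower, 4620 and 4583, and 4709 and 4881 in the same order. With a log2 fold limit of 1, 3 listed genes were lower in bFGF against control. The other family genes had 1 higher in OIM against control and 0 higher in bFGF against control. Signalling genes called higher were 0 in OIM against control and 1 in bFGF against OIM, and 6 were lower in each comparison of bFGF. All genes then gave 63 higher and 28 lower, 1216 and 1245, and 1339 and 1417. Without a filter on low counts, 2 other family genes were higher in bFGF against control.

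With each library left out in turn, the other family genes called higher ranged from 1 to 2 in OIM against control, from 0 to 1 in bFGF against OIM and from 0 to 2 in bFGF against control, and the signalling genes called higher in OIM against control from 0 to 3. Log2 fold changes that were not called and changed sign ranged from -0.10 to 0.79 for EPHA5 and from -0.053 to 0.14 for EFNA5 in OIM against control. In bFGF against OIM they ranged from -0.086 to 0.39 for EPHA3, from -0.18 to 0.11 for EPHB2, from -0.41 to 0.068 for EPHA1, from -0.22 to 0.10 for EFNA2 and from -0.30 to 0.41 for EFNB3. Over the values of the tested family genes and, in the comparisons that called them, of the signalling genes, under the alternatives other than the fold limits, 34 lost a call, 15 changed sign and 1256 did neither.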

Other observations

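Of the 6179 circRNAs, 2 lie inside a family gene, both in EPHA4, which encodes the receptor with the highest level per length in control. The second, circRNA_2627 (chr15:123386771-123389330, minus strand), had 2, 0 and 4 counts in the control libraries and 0 counts in the OIM and bFGF libraries. Of the 9014 non-coding transcripts placed on the genome by coordinates, 1 overlapped a family gene, EPHB2, and it was at 0 in every library.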
